A study of Arabidopsis thaliana with 30 samples.

Results

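Indole-3-acetic acid (IAA) and abscisic acid (ABA) were set against each other directly in Arabidopsis thaliana roots, without passing through a mock control. The comparison was defined by the labels: it takes the 3 wild-type Col-0 root libraries treated with IAA and the 3 treated with ABA, 6 of the 30 libraries in the series. In every group compared here the seedlings were Col-0, 5 days old (1 day in light and 4 days in darkness), and were held for 2 h in liquid medium under green safe-light before being cut where root meets shoot. The IAA and ABA groups received 10 µM of the respective hormone, and the mock group received the ethanol solvent. Mock libraries served as a reference point for each gene and entered some alternative fits. The same 3 treatments of Col-0 shoots, 3 libraries each, came from the same kind of seedling. Libraries of the ABA-deficient mutant aba2-3 entered no comparison; its IAA-treated shoots and roots served to choose genes typical of the shoot, and all 30 libraries to scale the printed levels. The roots were whole organs, so every level below is an average over their cell types. How many seedlings went into a library, and whether the replicates came from separate cultures, is not given in the sources used here, so the p-values measure the spread between these libraries.

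IAA is the main natural auxin. It brings TIR1/AFB receptors together with Aux/IAA repressors, which are then degraded, and this frees ARF transcription factors to act on their targets; many Aux/IAA, GH3, SAUR and LBD genes respond within minutes to hours. ABA is the hormone of drought and seed dormancy. It binds PYR/PYL receptors, which then block clade A PP2C phosphatases, and this lets SnRK2 kinases phosphorylate ABF and ABI5 transcription factors that act on protective genes. In roots, auxin is known for starting lateral roots and ABA for holding growth back and for changing the barriers of the endodermis.

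ARFs bind an auxin response element (TGTCTC, or the form TGTCGG), and ABF-type factors bind an ABA response element with the core ACGTG. The 250 bases before the gene start of 7 genes are shown because these genes stand at the centre of the results: an auxin-conjugating enzyme, a lateral root factor, an Aux/IAA repressor, an ABA phosphatase, a galactinol synthase, an ABI5-binding protein and an ABA receptor. They were chosen by role and by difference, not by their elements. The sequences are from RefSeq TAIR10.1, 5′ to 3′ on the strand of the gene, and capitals mark both auxin forms and the ABA core on either strand. The RefSeq gene start lies 0 to 145 bases before the start in the deposited files.
GH3.3: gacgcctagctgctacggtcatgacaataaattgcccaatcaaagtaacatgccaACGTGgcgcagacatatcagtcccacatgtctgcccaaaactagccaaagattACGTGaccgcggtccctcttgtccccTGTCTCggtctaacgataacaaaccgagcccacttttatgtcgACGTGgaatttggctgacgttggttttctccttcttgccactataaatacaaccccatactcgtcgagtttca
LBD29: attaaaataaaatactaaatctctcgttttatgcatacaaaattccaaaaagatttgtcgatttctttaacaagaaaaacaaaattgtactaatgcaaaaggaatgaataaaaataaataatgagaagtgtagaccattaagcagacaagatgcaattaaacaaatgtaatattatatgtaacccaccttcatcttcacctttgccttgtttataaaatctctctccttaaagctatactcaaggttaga
IAA1: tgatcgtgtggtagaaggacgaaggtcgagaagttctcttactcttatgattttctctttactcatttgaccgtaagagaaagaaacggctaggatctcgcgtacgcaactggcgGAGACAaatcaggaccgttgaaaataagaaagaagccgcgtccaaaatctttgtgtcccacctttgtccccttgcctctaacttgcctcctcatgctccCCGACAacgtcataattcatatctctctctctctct
HAI3: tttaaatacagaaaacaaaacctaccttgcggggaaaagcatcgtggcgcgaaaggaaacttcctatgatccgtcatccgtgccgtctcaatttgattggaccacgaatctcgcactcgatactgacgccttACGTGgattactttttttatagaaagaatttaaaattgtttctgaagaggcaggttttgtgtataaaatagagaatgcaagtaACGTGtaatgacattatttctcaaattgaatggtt
GolS2: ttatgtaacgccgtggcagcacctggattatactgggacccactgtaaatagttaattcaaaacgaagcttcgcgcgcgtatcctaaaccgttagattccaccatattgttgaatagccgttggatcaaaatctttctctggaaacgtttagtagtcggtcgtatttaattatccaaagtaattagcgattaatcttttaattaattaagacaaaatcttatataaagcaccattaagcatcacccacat
AFP1: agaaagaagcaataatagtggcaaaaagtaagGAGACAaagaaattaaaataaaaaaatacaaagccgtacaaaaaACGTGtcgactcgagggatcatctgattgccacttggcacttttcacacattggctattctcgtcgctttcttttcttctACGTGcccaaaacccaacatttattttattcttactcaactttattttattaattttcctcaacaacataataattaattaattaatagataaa
PYL4: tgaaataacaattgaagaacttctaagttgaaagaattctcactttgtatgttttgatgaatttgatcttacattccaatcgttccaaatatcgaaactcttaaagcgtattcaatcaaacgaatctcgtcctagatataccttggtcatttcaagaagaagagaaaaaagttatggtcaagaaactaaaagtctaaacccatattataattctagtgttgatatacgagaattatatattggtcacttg
The positions are chr2:9866563-9866812 for GH3.3 (minus strand), chr3:21549573-21549822 for LBD29 (minus strand), chr4:8360746-8360995 for IAA1 (plus strand), chr2:12608425-12608674 for HAI3 (plus strand), chr1:21207287-21207536 for GolS2 (plus strand), chr1:26038655-26038904 for AFP1 (plus strand) and chr2:16049668-16049917 for PYL4 (plus strand). GH3.3 holds 1 auxin element and 3 ABA cores, IAA1 holds 2 and 0, HAI3 0 and 2, and AFP1 1 and 2. LBD29, GolS2 and PYL4 hold 0 of either in this window.

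The files gave 30, 22.6 and 21.6 M counts in IAA root replicates 1 to 3, 48.8, 20.4 and 28.3 M in the ABA roots and 23, 23.3 and 17.3 M in the mock roots. The tissue label was checked first: all 12 root markers found in the files, among them COBL9 and EXPA7 of root hairs and the iron transporter IRT1, were detected in each of the 6 libraries. Shoot RNA was also present, and unevenly. The median of 335 genes typical of the shoot stood at 0.455, 8.2 and 0.498% of its shoot level in IAA root replicates 1 to 3, at 0.743, 11.2 and 6.15% in the ABA roots and at 0.507, 0.78 and 7.5% in the mock roots. IAA root replicate 2 and ABA root replicates 2 and 3 therefore stood apart, as did mock root replicate 3. The summed level of 15 photosynthetic markers was 274, 5361 and 255 CPM in the IAA roots and 474, 7982 and 4734 CPM in the ABA roots. All 15 were detected, 0 of 15 were called either way, and their log2 differences ran from −1.74 to −0.17 with a median of −1.02. The comparison was therefore also run with the shoot-RNA level as a covariate, and without IAA root replicate 2 and ABA root replicates 2 and 3. Lists whose counts changed without these 3 libraries are given both ways.

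After 2 h, roots in IAA and roots in ABA differed at 2455 of 20214 genes, 12.1% of those tested: 1068 (5.28%) were higher in IAA and 1387 (6.86%) higher in ABA. A gene is called when its edgeR adjusted p is under 0.05, and differences are log2 values, IAA minus ABA, so positive means higher in IAA. Genes for auxin conjugation and lateral root initiation were among the widest differences on the IAA side, and PP2C phosphatases, protective LEA proteins and a galactinol synthase on the ABA side. Of the called genes, 626 were at least 2-fold higher in IAA and 844 in ABA, and 84 and 181 at least 8-fold. In all 2455 called genes the 3 IAA values lay wholly above or below the 3 ABA values; over all tested genes such a gap was found with IAA above in 13.8% and with ABA above in 16.4%. The median difference over all genes tested was 0.00798. Without IAA root replicate 2 and ABA root replicates 2 and 3, 2067 genes were called, 1055 higher in IAA and 1012 higher in ABA, and 1510 of them were among the 2455, 0 with the opposite sign. That fit leaves 1 ABA library and borrows its spread from the IAA and mock roots, among them mock root replicate 3. Whether its lost calls came with less shoot RNA or with fewer libraries was not tested. With a shoot-RNA covariate on all 6 libraries, 2731 genes were called (1201 higher in IAA and 1530 in ABA). Of these, 2367 were among the 2455. That fit called 17 Aux/IAA and 17 SAUR genes higher in IAA. Higher in ABA it called 18 LEA genes, 12 aquaporins, 4 suberin genes and 1 root hair gene. Leaving out IAA root replicate 3 lowered the count of 2455 most, to 1597.

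**Figure D1:**
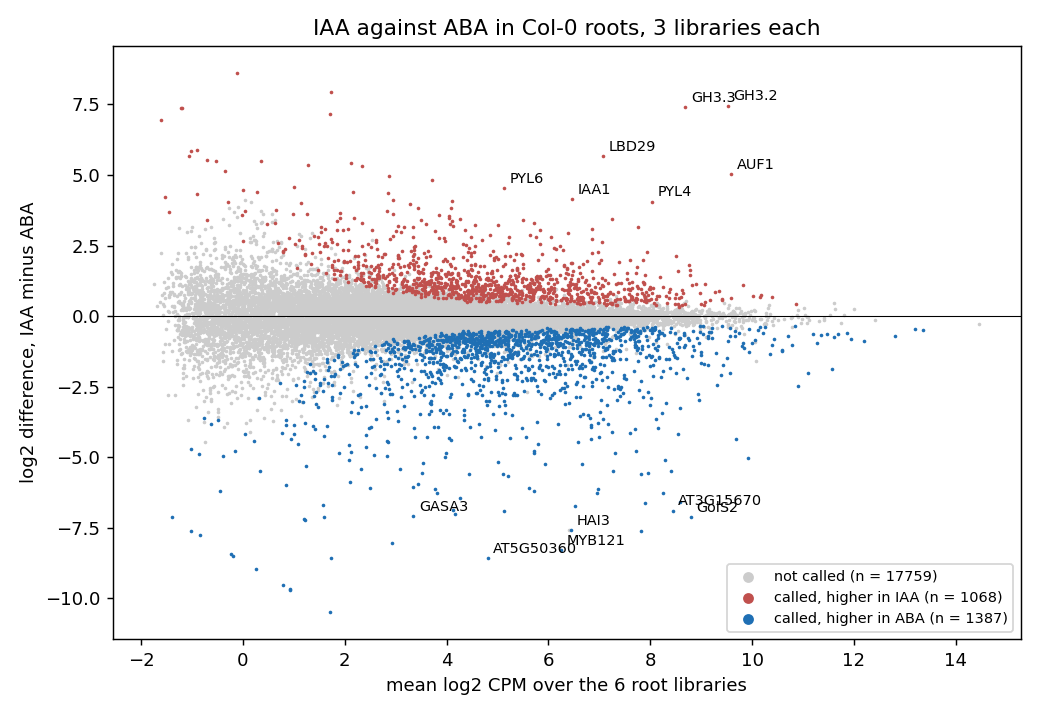
Each point is 1 of 20214 tested genes, with its mean log2 CPM over the 6 root libraries on the x axis and its log2 difference, IAA minus ABA, on the y axis. Red points (1068) were called higher in IAA and blue points (1387) higher in ABA; GH3.2, GH3.3 and LBD29 stand at the top among the abundant genes and AT5G50360, MYB121 and HAI3 at the bottom.

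Each gene was also set against the mock roots, to show whether a difference came with a change under one hormone or both. Against mock, 1291 of 20663 genes were called under IAA (6.25%; 606 or 2.93% higher and 685 or 3.32% lower) and 3518 under ABA (17%; 1863 or 9.02% higher and 1655 or 8.01% lower). The count for IAA fell to between 478 and 847 without any 1 of the 3 IAA or 3 mock root libraries, and was lowest without IAA root replicate 3. Both comparisons use the same 3 mock libraries, so their values are only placed side by side. In whole roots a lower level can mean fewer cells of a type or less RNA per cell, and these cannot be told apart.

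The GH3 enzymes, which join IAA to amino acids and so inactivate it, held the 2 largest differences toward IAA among genes averaging at least 3 on the log2 CPM scale. GH3.2 (AT4G37390, chromosome 4, 17579657 to 17582022, plus strand) stood at 1279, 1506 and 1382 CPM in the IAA roots, 8.19, 9.56 and 6.64 CPM in the ABA roots and 36, 29.2 and 32.4 CPM in the mock roots. The 3 treatments did not overlap, and ABA roots lay below mock as well as below IAA. The difference was 7.46 (0.18 SE, adjusted p 7.06e-07); against mock, GH3.2 rose by 5.45 in IAA and fell by 2.00 in ABA. GH3.3 (AT2G23170, chromosome 2, 9863855 to 9866562, minus strand) was at 582, 909.7 and 854 CPM in IAA and 7.25, 2.88 and 3.77 CPM in ABA, with 6.14, 7.81 and 8.41 CPM in mock, a difference of 7.41 (0.40 SE, adjusted p 1.76e-05). Its ABA values overlapped the mock range. GH3.1 differed by 3.39 (0.14 SE, adjusted p 6.94e-06). GH3.5 was higher than mock under both hormones, at 503, 774 and 648 CPM in IAA, 184, 172 and 205 CPM in ABA and 72, 78.1 and 109 CPM in mock, and higher in IAA than in ABA by 1.81 (0.16 SE, adjusted p 0.000176). Of the 6 GH3 genes tested, 4 were called higher in IAA and 0 higher in ABA, with a median of 2.6; GH3.6 (0.69, adjusted p 0.119) and GH3.17 (−0.37, adjusted p 0.463) did not pass.

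Of 27 Aux/IAA repressors tested, 14 were called higher in IAA and 0 higher in ABA, with a median difference of 1.12. IAA1 (AT4G14560, chromosome 4, 8361058 to 8361986, plus strand) was at 159, 176 and 146 CPM in IAA, 8.23, 11.7 and 7.95 CPM in ABA and 17.2, 16 and 24 CPM in mock. It rose over mock in IAA (3.11) and fell in ABA (−1.04), and the direct difference was 4.15 (0.19 SE, adjusted p 8.06e-06). IAA29 showed the same arrangement at a low level, 6.07, 11.4 and 6.59 CPM in IAA, 0.191, 0 and 0.339 CPM in ABA and 1.03, 1.02 and 2.02 CPM in mock, with the list's widest difference, 5.43 (0.74 SE, adjusted p 0.00174). IAA5 (4.10, adjusted p 0.00702) and IAA19 (2.93, adjusted p 0.000212) followed, and IAA2 differed by 2.00 (adjusted p 1.76e-05) with ABA values, 89.9, 98.3 and 85 CPM, that overlapped mock, 82.7, 85.3 and 101 CPM. Without the 3 libraries that held more shoot RNA, 11 of the list were called higher in IAA.

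Lateral root regulators leaned the same way: 7 of 12 were called higher in IAA and 0 higher in ABA, with a median of 1.64. LBD29 (AT3G58190, chromosome 3, 21548484 to 21549558, minus strand), an LBD factor acting downstream of ARF7 and ARF19, stood at 238, 269 and 250.4 CPM in IAA, 6.76, 4.63 and 3.69 CPM in ABA and 3.47, 6.11 and 6.01 CPM in mock. Only the IAA roots were apart from the other groups. The difference was 5.67 (0.24 SE, adjusted p 6.94e-06). LBD16, of the same family, was at 85, 104 and 101 CPM in IAA and 16.3, 10.099 and 9.65 CPM in ABA (3.04, 0.23 SE, adjusted p 8.15e-05). LBD18 (1.77), PUCHI (1.52) and ARF19 (0.98) were also called, with adjusted p of 0.0444, 0.00411 and 0.00531. LBD17 (4.41, adjusted p 0.031), LBD18 and GATA23 (2.29, adjusted p 0.0248) were called in 3, 2 and 1 of the 6 leave-one-out fits, each run with 1 library removed. Without the 3 libraries that held more shoot RNA, 5 of the 12 were called higher in IAA, and the calls of LBD18, PUCHI and GATA23 were lost, with adjusted p of 0.154, 0.195 and 0.146.

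Transport, synthesis and other early auxin genes differed less. Over all genes tested 12.1% were called, and the auxin synthesis genes, with 1 of 8, lay near that share. Of 15 transport genes, 6 were called higher in IAA and 1 higher in ABA; without the 3 libraries these were 4 and 1. The efflux carriers PIN3 (1.73, 0.17 SE, adjusted p 0.000341) and PIN7 (1.43, 0.15 SE, adjusted p 0.000418) were higher in IAA, as was the kinase gene WAG2 (1.57, adjusted p 0.00114). PIN4 went the other way (−1.13, 0.12 SE, adjusted p 0.000478), with 25.5, 27.4 and 25.5 CPM in IAA, 60.1, 60.1 and 55.8 CPM in ABA and 22.8, 24.7 and 33.4 CPM in mock. TAA1, which makes the precursor of IAA, was the 1 gene called of 8 for auxin synthesis (1.32, adjusted p 0.00356); without the 3 libraries, 0 of 8 were called. Of 48 SAUR genes tested, 9 were called higher in IAA and 1 higher in ABA (8 and 1 without the 3 libraries), with a median of 0.88. SAUR76 was at 142, 194 and 209 CPM in IAA, 33.6, 43.2 and 41.4 CPM in ABA and 93, 122 and 180.5 CPM in mock. Its difference of 2.25 (adjusted p 0.000117) came with a fall below mock in ABA (−1.74, adjusted p 0.000583) and a value of 0.51 in IAA that did not pass (adjusted p 0.226). Of 10 ethylene synthesis genes 3 were called higher in IAA and 1 higher in ABA, and without the 3 libraries 1 and 0. Among them ACS11 differed by 2.82 (0.21 SE, adjusted p 8.51e-05). Of 10 HD-ZIP II factors 3 were called each way, and without the 3 libraries 3 higher in IAA and 0 higher in ABA. HAT2, at 187, 217 and 172 CPM in IAA, 34.6, 31.7 and 22.4 CPM in ABA and 51.4, 44.9 and 53.8 CPM in mock, differed by 2.74 (adjusted p 4.63e-05), while HB-4 was higher in ABA (−2.91, adjusted p 0.0142) in 3 of the 6 fits with a library left out.

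**Figure D2:**
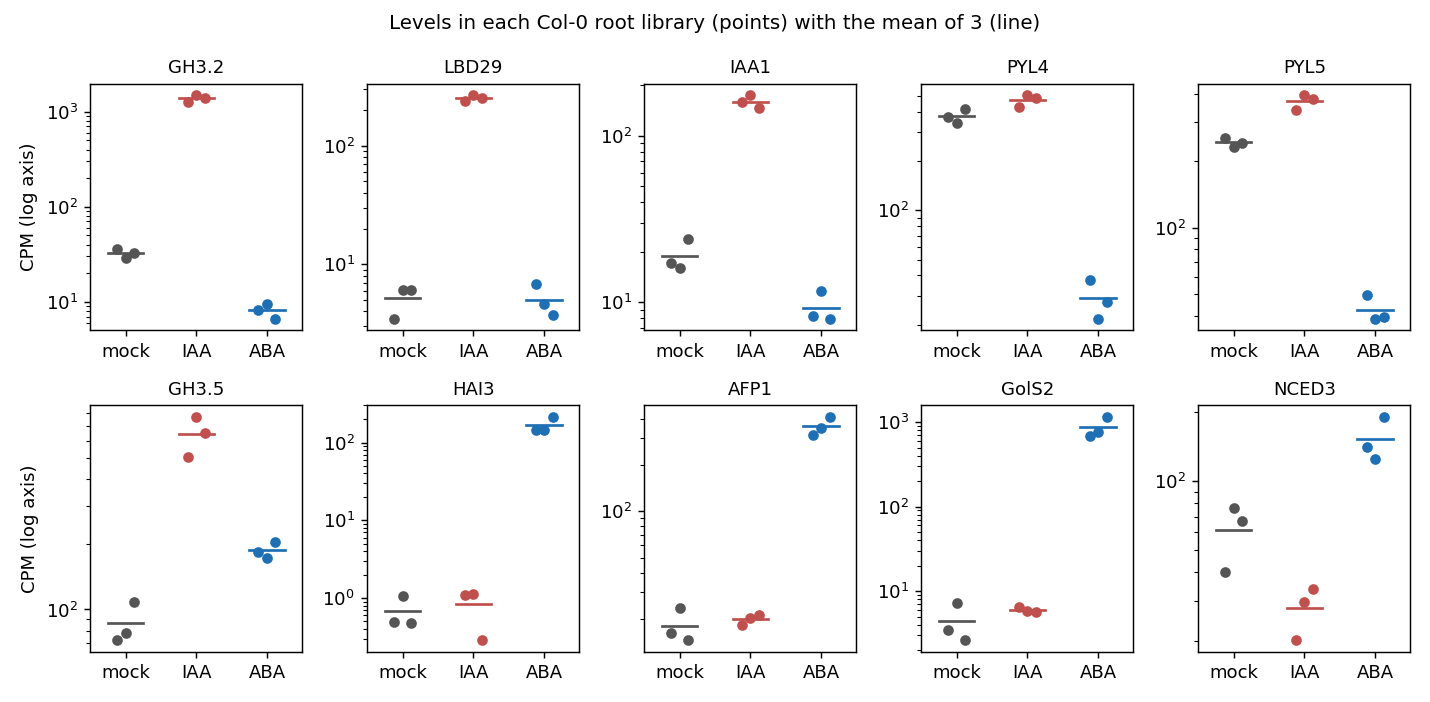
Levels of 10 genes in each Col-0 root library, in CPM on log axes, with points for libraries and lines for the mean of 3. GH3.2 and IAA1 were above mock in IAA and below mock in ABA, PYL4 was near mock in IAA and low in ABA, and HAI3, AFP1 and GolS2 were high in ABA and near mock in IAA.

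In the ABA pathway the receptors were called in both directions and the phosphatases they control in 1. Of 10 PYR/PYL receptors tested, 6 were called higher in IAA and 2 higher in ABA. PYL4 (AT2G38310, chromosome 2, 16050063 to 16051168, plus strand) was at 425, 506 and 485 CPM in IAA, 37.6, 21.8 and 27.7 CPM in ABA and 371, 341 and 417 CPM in mock. PYL6 was at 63.8, 54.2 and 73.1 CPM in IAA, 4.85, 2.05 and 1.43 CPM in ABA and 66.6, 57 and 54.9 CPM in mock. For both, the ABA roots stood apart from the other groups; IAA and mock overlapped for PYL6, and the IAA values of PYL4 lay just above mock. The differences were 4.06 (0.21 SE, adjusted p 1.5e-05) and 4.52 (0.43 SE, adjusted p 0.000278); against mock, ABA lowered PYL4 (−3.70) and PYL6 (−4.39), and IAA gave 0.37 (adjusted p 0.243) and 0.14 (adjusted p 0.878). PYL5 differed by 3.15 (adjusted p 7.86e-06) and was also above mock in IAA (0.65, adjusted p 0.00983). PYR1 (1.35), PYL1 (1.01) and PYL8 (0.61) were called higher in IAA, with adjusted p of 0.00197, 0.0046 and 0.0223, the last in 2 of the 6 leave-one-out fits. PYL7 (−2.15, adjusted p 0.00609) and PYL9 (−0.71, adjusted p 0.00504) were higher in ABA; exons of PYL7 share 571 bases by position with AT4G01030, so its level is uncertain.

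All 9 clade A PP2C phosphatases, the brakes of ABA signalling, were called higher in ABA, with a median of −3.82, and 9 of 9 also without the 3 libraries. HAI3 (AT2G29380, chromosome 2, 12608702 to 12610167, plus strand) was at 1.1, 1.12 and 0.285 CPM in IAA, 146, 143 and 216 CPM in ABA and 0.495, 1.06 and 0.479 CPM in mock. IAA and mock values overlapped, and every ABA value lay far above both. The difference was −7.60 (0.44 SE, adjusted p 2.31e-05). HAI2 (−6.92) and HAI1 (−6.14) followed, with adjusted p of 0.000468 and 1.76e-05, then ABI2 (−3.82), PP2CA (−3.44), HAB1 (−3.06), ABI1 (−2.97) and HAB2 (−2.25), with adjusted p of 8.02e-06, 3.37e-06, 2.09e-05, 3.16e-05 and 5.36e-05. AHG1 had 2 counts in the 3 IAA libraries together and 369 in the 3 ABA libraries, a pooled ratio of 162 with a 95% exact counting interval from 44.4 to 1340. Of 10 SnRK2 kinases, 2 were called in each direction, and 1 in each without the 3 libraries; SNRK2.7 was the widest (−1.70, adjusted p 0.0013), and the calls of SNRK2.8 (0.64) and SNRK2.3 (0.54) were lost in all 6 fits with a library left out; exons of SNRK2.8 share 169 bases by position with AT1G78280.

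Transcription factors of the ABA pathway were called higher in ABA in 13 of 15 cases, with a median of −2.40. The homeodomain gene HB12 stood at 4.61, 8.8 and 5.94 CPM in IAA, 237, 274 and 374 CPM in ABA and 9.22, 19.6 and 15.5 CPM in mock. IAA roots lay below mock without passing the test (−1.17, adjusted p 0.0509), and the direct difference was −5.49 (0.29 SE, adjusted p 1.76e-05). AFP1 (AT1G69260, chromosome 1, 26039048 to 26040720, plus strand), which binds ABI5 and opposes it, was at 18.2, 20.4 and 21.3 CPM in IAA and 315, 349.9 and 413 CPM in ABA (−4.13, 0.15 SE, adjusted p 3.88e-06). ABF3 (−3.16), AFP2 (−3.12), HB7 (−3.07) and ABI5 (−2.40) were also called, and ABI3 was not (−1.34, adjusted p 0.113). Of 13 NAC and MYB factors, 10 were called higher in ABA (9 without the 3 libraries) and 0 higher in IAA. RD26 was at 57.2, 79.7 and 80.6 CPM in IAA and 1489, 1367 and 1726 CPM in ABA (−4.36, 0.17 SE, adjusted p 6.76e-06), and MYB41 (−5.59), NAC019 (−4.87) and MYB102 (−4.77) were the widest. Of 12 genes of ABA synthesis and breakdown, 4 were called higher in ABA (3 without the 3 libraries). They included both CYP707A1, which breaks ABA down (−2.63, adjusted p 4.63e-05), and NCED3, a rate-limiting enzyme of its synthesis. NCED3 was at 20.1, 29.6 and 33.9 CPM in IAA, 141, 125 and 192 CPM in ABA and 40.1, 76.5 and 66.8 CPM in mock. Its direct difference, −2.41 (0.24 SE, adjusted p 0.000342), came with a rise over mock in ABA (1.32, adjusted p 0.00688) and a fall in IAA (−1.09, adjusted p 0.0425).

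LEA and cold-regulated genes, whose products protect proteins and membranes as cells dry, were called higher in ABA in 18 of 19 cases, with a median of −4.30. The exception was RD22 (−0.93, adjusted p 0.506). Without the 3 libraries 12 of 19 were called. LEA7 was at 13.5, 14.9 and 13.4 CPM in IAA, 480.3, 579 and 881 CPM in ABA and 2.74, 8.97 and 7.56 CPM in mock, a difference of −5.50 (0.25 SE, adjusted p 7.86e-06). COR15A (−7.00, adjusted p 0.000288), EM1 (−6.05), KIN1 (−5.24), RAB18 (−4.86) and RD29B (−4.47) were on the same side. COR15B had 0 counts in the IAA roots and 0.617, 3.171 and 7.09 CPM in the ABA roots, at least 82.3-fold higher against a floor of 3 counts over the IAA group; with COR15B at that bound the list's median stayed −4.30. The more abundant RD29A and COR413-PM1 differed less, by −2.01 and −1.88. Osmolyte genes were mixed, with 3 of 11 called in each direction (2 higher in IAA and 3 higher in ABA without the 3 libraries). GolS2 (AT1G56600, chromosome 1, 21207537 to 21209596, plus strand), the first enzyme of raffinose synthesis, was at 6.45, 5.89 and 5.73 CPM in IAA, 677, 762 and 1161 CPM in ABA and 3.47, 7.16 and 2.61 CPM in mock (−7.13, 0.25 SE, adjusted p 3.37e-06). IAA and mock overlapped. P5CS1 of proline synthesis was higher in ABA (−3.63, adjusted p 3.88e-05), and GolS3 higher in IAA (1.17, adjusted p 0.0306) in 3 of the 6 fits with a library left out.

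**Figure D3:**
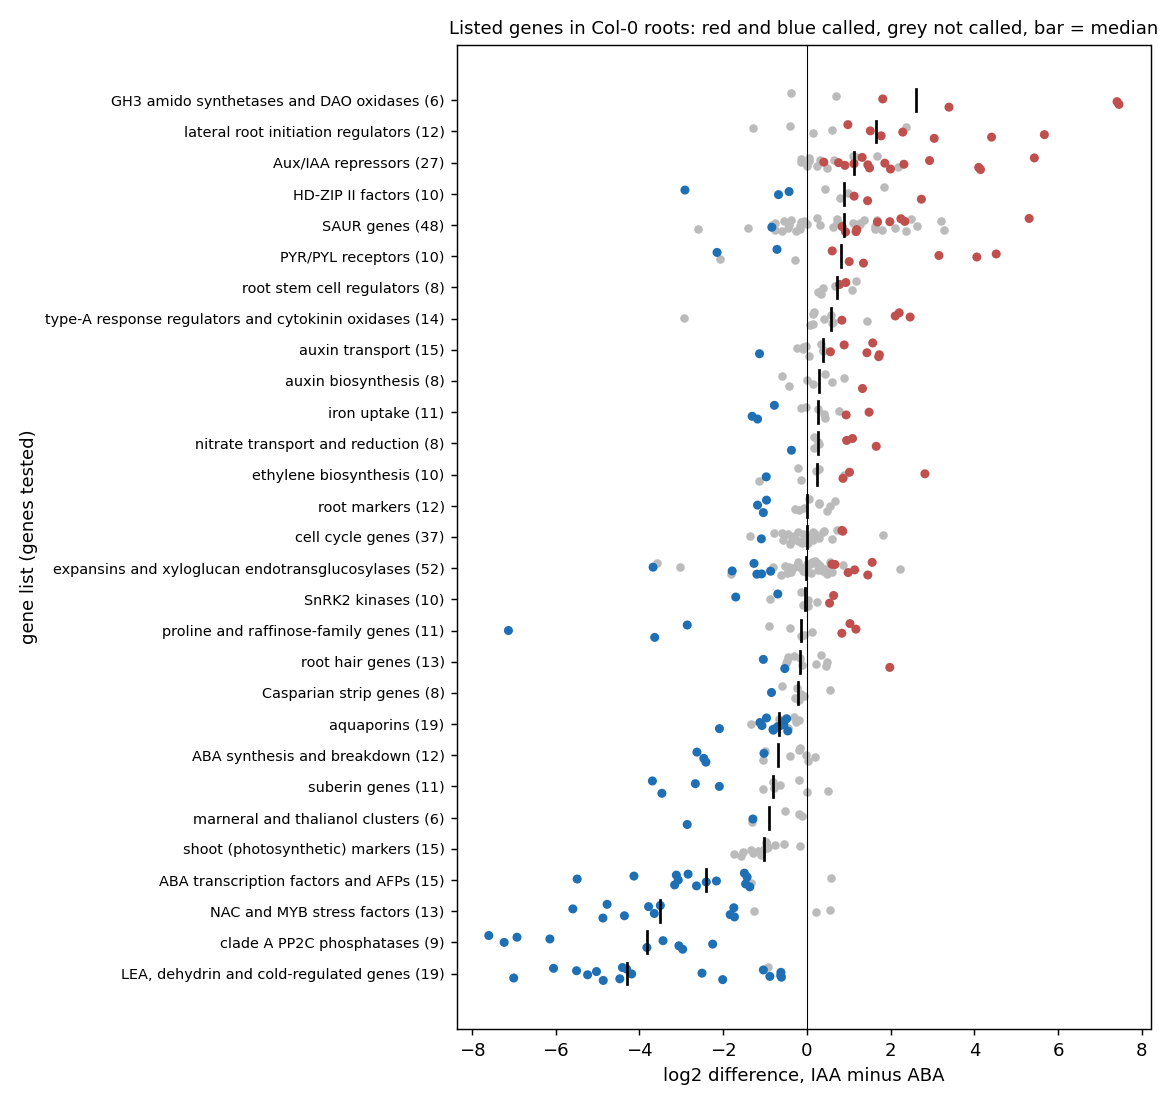
Log2 difference, IAA minus ABA, of every tested gene of 27 lists and 2 marker lists, in rows sorted by median, with called genes in red (higher in IAA) or blue (higher in ABA), uncalled genes in grey and the median as a bar. GH3 genes have the highest median and LEA genes the lowest; COR15B, at 0 counts in IAA, is not drawn.

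Growth and barrier genes divided. The share called over all genes tested was 12.1%, and the Casparian strip genes, with 1 of 8 called, lay near it. Aquaporins, the water channels of the plasma and vacuolar membranes, were called higher in ABA in 12 of 19 cases and higher in IAA in 0 (median −0.66); without the 3 libraries 8 were called higher in ABA. PIP1;4 was at 182, 332 and 221 CPM in IAA, 837, 1000.4 and 1361 CPM in ABA and 139, 203 and 259 CPM in mock (−2.09, adjusted p 0.000826). TIP2;3 was at 1697, 1617 and 1506 CPM in IAA, 3408, 2864 and 3380.0 CPM in ABA and 1777, 1447 and 1722 CPM in mock (−0.96, adjusted p 0.00038). In both genes IAA and mock overlapped and ABA lay above. Of 11 suberin genes 4 were called higher in ABA: ABCG6 (−3.69), GPAT5 (−3.46), KCS2 (−2.66) and CYP86B1 (−2.09), the last in 2 of the 6 fits with a library left out; without the 3 libraries 2 were called. Of 8 Casparian strip genes CASP5 was called (−0.86, adjusted p 0.00358), and without the 3 libraries 1 was called each way. The 52 expansin and xyloglucan endotransglucosylase genes had 6 called each way and a median of −0.0088, but without the 3 libraries 1 was called higher in IAA and 5 higher in ABA. A further 3 of 37 cell cycle genes were called, where the share over all genes was 12.1%, and 1 without the 3 libraries. Of 8 stem cell regulators SCR (0.78, adjusted p 0.00659) and JKD (0.93, adjusted p 0.0199) were called higher in IAA, JKD in 2 of the 6 leave-one-out fits.

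Nutrient and cytokinin genes gave shorter lists. Of 8 genes of nitrate transport and reduction 3 were called higher in IAA and 1, NRT1.1 (−0.37, adjusted p 0.0295), higher in ABA; without the 3 libraries these were 1 and 0. NRT1.1 lost its call without IAA root replicate 1 (adjusted p 0.0967) or 3 (0.15). The call was also lost without ABA root replicate 2 (0.0583) or 3 (0.0899), and with all 30 libraries in the fit (0.332). The nitrate reductase gene NIA2 was at 558, 611 and 587 CPM in IAA, 303, 277 and 266 CPM in ABA and 368, 466 and 439 CPM in mock, a difference of 1.09 (adjusted p 0.000172). Among 11 iron uptake genes, the regulators bHLH39 (1.49) and FIT (0.94) were higher in IAA while the reductase FRO2 (−1.31) and the transporter IRT1 (−1.18) were higher in ABA; 2 genes of the list were called higher in IAA and 3 higher in ABA, and without the 3 libraries 2 and 1. FIT was below mock under both hormones (34.9, 29.4 and 35.5 CPM in IAA, 19.1, 16.2 and 18.1 CPM in ABA and 79, 59.4 and 70.2 CPM in mock). Of 14 type-A response regulators and cytokinin oxidases 4 were called higher in IAA (2 without the 3 libraries) and 0 higher in ABA, with CKX6 at 2.21; its exons share 922 bases by position with AT3G63445. Of 13 root hair genes, RSL2 was called higher in IAA (1.98, adjusted p 0.00163) and 2 higher in ABA, RHD6 (−0.53, adjusted p 0.0364) and COBL9 (−1.04, adjusted p 0.0374). Without the 3 libraries RSL2 was still called (adjusted p 0.025) and the other two were not (adjusted p 0.123 and 0.0883); leave-one-out fits called RHD6 in 0 and COBL9 in 2 of 6. Of 6 genes of the marneral and thalianol clusters, which make root triterpenes, MRN1 and CYP71A16 were called higher in ABA (1 of the 6 genes without the 3 libraries), both lower than mock in IAA. MRN1 was at 0.208, 1.58 and 0.529 CPM in IAA, 3.79, 6.29 and 6.86 CPM in ABA and 17.3, 30.7 and 39.4 CPM in mock (−2.86, adjusted p 0.0292), and its call held in 2 of the 6 leave-one-out fits. Its values thus lay below mock under both hormones. Against mock, 5 of the 6 cluster genes were called lower in IAA and 3 in ABA, with medians of −2.16 and −1.48.

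Outside these lists, the widest differences among genes averaging at least 3 on the log2 CPM scale fell on genes of several kinds. On the IAA side AUF1, an F-box gene, was at 1337, 1539.8 and 1395 CPM in IAA, 55.8, 45.9 and 32.3 CPM in ABA and 108, 80.2 and 139 CPM in mock (5.03, 0.21 SE, adjusted p 6.94e-06). Like GH3.2 it was above mock in IAA and below mock in ABA. AT3G60420 (4.81), the glutathione transferase gene GSTU12 (4.06) and AT5G54710 (3.98) completed the 10. On the ABA side AT5G50360 was at 0.119, 0.249 and 0.0407 CPM in IAA and 52.6, 35.4 and 75.3 CPM in ABA (−8.59, 0.48 SE, adjusted p 2.08e-05), and MYB121 (−8.31), AT4G33467 (−7.62), GASA3 (−7.10), AT3G15670 (−6.89) and AT5G63350 (−6.89) stood beside the listed genes. Among the most abundant genes past 2-fold, the quinone reductase FQR1 was at 1233, 1115 and 1148 CPM in IAA and 651, 511 and 518 CPM in ABA (1.1), and FMO GS-OX4 at 525, 566 and 565 CPM in IAA and 2395, 3159 and 3963 CPM in ABA (−2.48).

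Motifs were then counted over promoters, on both strands of the same 250-base window, for all called genes with a window. The ABA core ACGTG was in 45.2% of 1368 promoters of genes higher in ABA and in 65% of 180 at least 8-fold higher. It was in 19.4% of 1059 promoters of genes higher in IAA, in 23% of 17254 not called and in 22.9% of all 27443. The longer form ACGTGNC, which contains the core, was in 27%, 46.1%, 5%, 8.66% and 8.57% in the same order. The auxin elements TGTCTC or TGTCGG were in 16.1% of promoters of genes higher in IAA, 18.5% of those higher in ABA and 14.7% of all. Taken apart, the forms went different ways. TGTCTC was in 12%, 10.5% and 10.9% in that order, and TGTCGG in 5.1%, 8.63% and 4.16%, so the higher pooled share in ABA came with TGTCGG. By list, 14 of 19 LEA and cold-regulated genes and 6 of 9 PP2C genes held the ABA core. An auxin element was in 13 of 29 Aux/IAA genes and 8 of 12 lateral root regulators. Of the regulators called higher in IAA, GATA23, PUCHI and ARF19 held 1 each, and LBD16, LBD17, LBD18 and LBD29 held 0. The uncalled LBD33, PLT3, PLT5, PLT7 and ARF7 held 1 each, so within this list the element did not go with the calls. The other auxin lists held an auxin element in 3 of 8 GH3, 9 of 80 SAUR, 3 of 18 transport and 1 of 14 synthesis genes. The ABA core was less frequent in other lists with calls toward ABA. It was in 9 of 16 ABA transcription factor and AFP genes and 7 of 13 NAC and MYB genes. Osmolyte genes held it in 5 of 11 cases, suberin genes in 3 of 12 and aquaporins in 1 of 20. On the auxin side 3 of 8 GH3, 8 of 29 Aux/IAA and 9 of 80 SAUR genes held the core. The form TGTCGG had 2 matches each in RD29A and COR15A, both higher in ABA, and in IAA5, higher in IAA. All these counts are matches of letters, so they do not show which factor binds a site, and they were given no test.

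**Figure D4:**
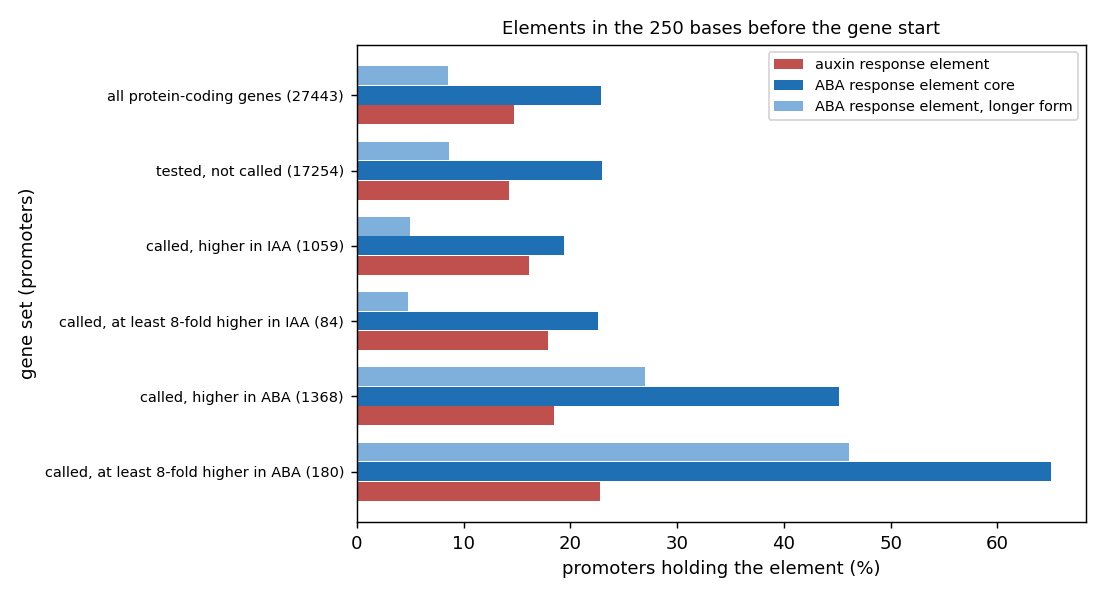
Share of promoters, in percent on the x axis, that hold an auxin response element (red), the ABA response element core (dark blue) or its longer form (light blue) in 250 bases, for 6 gene sets with their numbers of promoters. The ABA core reaches 65% in genes at least 8-fold higher in ABA, against 22.9% over all protein-coding genes.

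The same contrast was made in shoots with 6 other libraries, and there 2048 of 19691 genes were called (10.4%; 689 or 3.5% higher in IAA and 1359 or 6.9% higher in ABA). Over the 18884 genes tested in both organs the differences correlated with r = 0.61 across genes, which are not independent replicates and share library preparation; over the 2343 root-called genes tested in shoots, 2042 had the same sign. Genes called in both numbered 1058, which is 43.1% of the root calls and 51.7% of the shoot calls, and 1039 of them had the same sign. Whether the difference itself differed between organs was tested in the 12 libraries together, as root minus shoot. This called 220 of 21175 genes (1.04%), 131 more positive in root (0.619%) and 89 more negative (0.42%), and 172 of them were also called in roots. Its count rested on single libraries: it was 375 without IAA root replicate 2, 92 and 100 without IAA root replicates 3 and 1, 109 and 111 without ABA root replicates 3 and 2, 80 and 97 without IAA shoot replicates 2 and 3, and 145, 78 and 119 without ABA shoot replicates 1, 2 and 3.

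Among called genes averaging at least 3 on the log2 CPM scale over the 12 libraries, BAP2, a BON1-associated gene, was the most positive: it was higher in IAA in roots (1.84, with 47.8, 28 and 29.7 CPM in IAA and 11.2, 9.42 and 9.58 CPM in ABA) and had the opposite sign in shoots (−2.31), a root minus shoot difference of 4.13 (adjusted p 0.0153). AT5G54710 (4.00), called in 5 of the 12 leave-one-out fits, AT2G41090 (2.897) and CYP706A1 (2.82) followed; CYP706A1 shares 47.7% of its 50-base words with AT4G22710, so its level is uncertain. AUF1 was higher in IAA in both organs and more so in roots (2.41, adjusted p 0.00397). On the negative side YUC3, an auxin-synthesis gene, was called in shoots (4.06) while its root value was 0.60 (adjusted p 0.184), a difference of −3.49 (adjusted p 0.0217). GH3.1 (−2.27) had a wider difference in shoots. GASA3 (−4.83), AT5G63350 (−3.48, in 4 of those 12 fits), HDA14 (−3.37) and HB12 (−3.08) differed more toward ABA in roots. AT4G03140 (−3.45) had opposite signs, −2.35 in roots and 1.08 in shoots; its exons share 229 bases by position with AT4G03150.

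**Figure D5:**
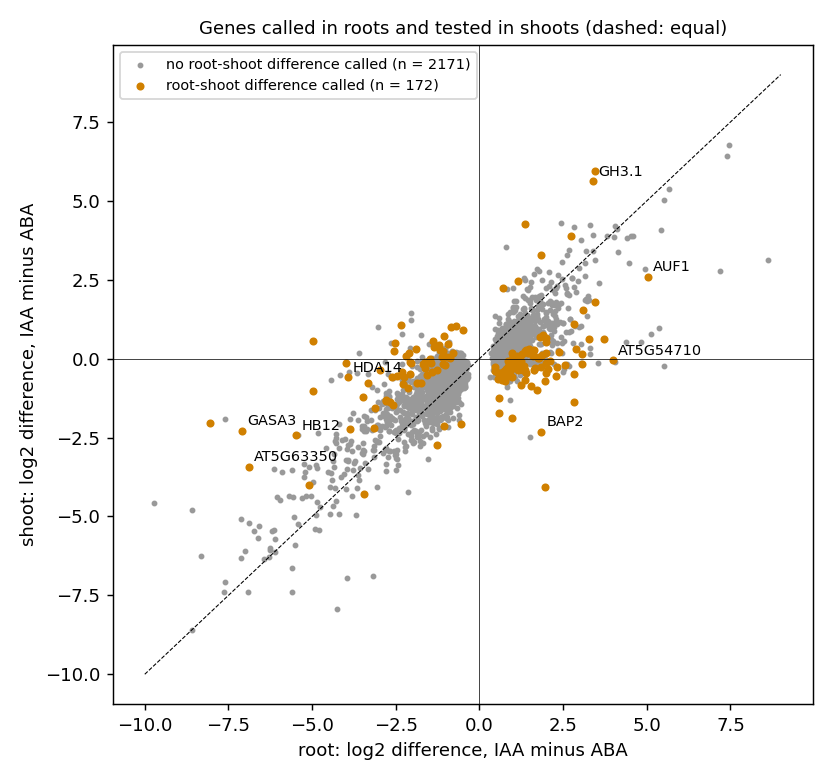
Log2 difference, IAA minus ABA, in roots on the x axis and in shoots on the y axis, for the 2343 genes called in roots and tested in shoots, with the dashed line marking equal values. Orange points (172) had a called root minus shoot difference, and BAP2 lies on opposite sides of 0 in the 2 organs.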

How the data were processed

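Gene-level RNA-seq files for 30 libraries, 10 groups of 3, each listed 33602 genes with the raw read counts, CPM and RPKM deposited by the authors. CPM and RPKM, recomputed from the counts and gene lengths, matched the deposited columns in 30 of 30 files, and only the counts were used from there. STAR, Subread, featureCounts, edgeR, limma and the TAIR10 build are named, without versions, in the submitters' processing notes; whether counting used strand is not given in the sources used here, so genes that overlap on opposite strands are uncertain. Per the labels' protocols, RNeasy Plant Mini columns gave the RNA and SMARTer chemistry the cDNA.

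Groups were taken from the labels, with Col-O read as Col-0. The 6 IAA and ABA root libraries were fitted alone with edgeR 4.0.16 (two-sided quasi-likelihood test with TMM scaling, filterByExpr, Benjamini-Hochberg adjustment over all genes tested, R 4.3.3). Root minus shoot was an interaction over 12 libraries, each hormone against mock used the 9 Col-0 root libraries, and the shoot contrast used its own 6. The standard error of a log2 difference was its size divided by the square root of F. Printed CPM values were scaled by TMM over all 30 libraries, which shifts their IAA minus ABA difference by a log2 of −0.038 from the scaling of the 6. Gene symbols were matched through RefSeq TAIR10.1 for 32835 IDs. The comparison, gene lists and rules for naming genes were chosen with earlier results of these data known. Every list member could be named, with full values for up to 4 called members of widest difference. Outside the lists came the 10 widest called differences each way at a mean log2 CPM of at least 3, the 3 most abundant genes past 2-fold each way, and the 4 most positive and 4 most negative called root minus shoot differences at a mean log2 CPM of at least 3 over the 12 libraries; genes named for another reason, such as GASA3, can lie outside that limit. Members given in full beyond these were chosen for their role after their values were seen. Shoot RNA was measured on 335 genes above 20 CPM in aba2-3 IAA shoots and under 1/50 of that in aba2-3 IAA roots. A count of 0 was given a floor of 3 counts over the group. Intervals and floors cover counting error only.

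On simulated counts with 200 genes changed 4-fold, over 5 draws for each comparison, the IAA-against-ABA root test recovered 66 to 68.5% of them, and 7.43 to 9.87% of its calls were false, above the nominal rate. The root minus shoot test recovered 43 to 52.5%, with 0 to 6.52% false. Alternatives were RLE scaling, DESeq2 1.42.0, limma-voom (limma 3.58.1), other filters, other sets of libraries, a replicate block, a shoot-RNA covariate, a 2-fold minimum and each library left out. Totals ran from 17.3 to 48.8 M counts per root library.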

Additional observations from a re-analysis of the deposited data

Results flagged for a closer look

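These genes had a root minus shoot difference, on the log2 scale, that passed edgeR's interaction test at an adjusted p under 0.05; the CPM values are means of 3 libraries. The call held in all 12 leave-one-out fits for GASA3, AT4G03140, HDA14, HB12, GH3.1, AFP2, PIN4, AUF1, CYP706A1, AT2G41090 and BAP2.

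Several auxin genes had a lower root minus shoot value. YUC3 (−3.49, 10 of 12 fits) was at 22.2 CPM in IAA roots and 15 CPM in ABA roots, and at 33.6 and 1.99 CPM in shoots. GH3.1 (−2.27) was at 78.5 and 7.64 CPM in roots and 163 and 3.27 CPM in shoots. GH3.6 gave −1.75 (3 of 12 fits), PIN4 −1.21 and HAT2 −1.17 (2 of 12 fits). PIN4 was at 26.1 and 58.7 CPM in roots and 92.3 and 89.3 CPM in shoots, so its level differed by hormone in roots and was nearly equal in shoots. ACS11 went the other way (1.71, 9 of 12 fits), as did AUF1 (2.41).

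Among ABA pathway genes HB12 gave −3.08, AFP2 −1.59, ABF3 −0.98 (2 of 12 fits) and PP2CA 0.82 (1 of 12 fits). HB12 was at 6.45 CPM in IAA roots and 295 CPM in ABA roots, and at 68.7 and 370.4 CPM in shoots. The aquaporin gene PIP1;4 gave −1.61 (3 of 12 fits).

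GASA3 gave −4.83, AT5G63350 −3.48 (4 of 12 fits), AT4G03140 −3.45 and HDA14 −3.37. CYP706A1 gave 2.82, AT2G41090 2.897, AT5G54710 4.00 (5 of 12 fits) and BAP2 4.13. AT2G41090 was at 9.76 CPM in IAA roots and 1.18 CPM in ABA roots, and at 15.5 and 14.2 CPM in shoots.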

How the results depend on the processing

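For IAA against ABA in roots the count of called genes (2455; 1068 higher in IAA and 1387 higher in ABA) was 1470 (626 and 844) with a 2-fold minimum. With all 30 libraries in the fit 1607 were higher in IAA. With 1 library left out it ran from 1597 to 2402 (681 to 1005 and 916 to 1492). Under the other alternatives the total was between 2067 and 3448. Genes called both in the main test and under an alternative had the same sign in every setting run. The root minus shoot count (220; 131 more positive and 89 more negative) was 639 (348 and 291) with DESeq2, 540 (287 and 253) with all 30 libraries, and 78 to 375 (46 to 215 and 28 to 230) with 1 library left out. IAA against mock (1291; 606 higher and 685 lower) gave 2432 (1200 and 1232) with DESeq2, 451 (219 and 232) with a 2-fold minimum and 478 to 1665 (240 to 807 and 227 to 858) with 1 library left out. ABA against mock (3518; 1863 and 1655) gave 1731 (912 and 819) with a 2-fold minimum and 2442 to 3545 (1310 to 1917 and 1132 to 1628) with 1 library left out. The cause of these changes was not tested, apart from the 2-fold minimum, which by construction drops small differences. Same-numbered IAA and ABA libraries deviated together with r of 0.436, 0.493 and −0.062, and unlike-numbered ones with r from −0.565 to 0.35. Replicate 2 of both groups held more shoot RNA (8.2 and 11.2%), as did ABA root replicate 3 (6.15%). These values do not settle whether the replicate numbers pair the samples, and the main test did not pair them. With the replicate block 2899 genes were called in roots (1213 and 1686) and 212 for root minus shoot.

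Of 135 called genes from the lists and the text, 93 kept their call under all 16 alternatives, and 0 changed sign. Without the 3 libraries that held more shoot RNA, calls lost among the genes named above, beside those already given, were WAG2 (adjusted p 0.0564), HB-4 (0.108), GolS3 (0.0787), COR15B (0.0784), KCS2 (0.0798), CYP86B1 (0.521), SCR (0.183), CKX6 (0.0627), IRT1 (0.0575), TAA1 (0.0512), CYP71A16 (0.106), SNRK2.3 (0.181) and NRT1.1 (0.122). With limma-voom COR15A, COR15B and CYP86B1 lost their calls (adjusted p 0.151, 0.157 and 0.126). The edgeR fit of all 30 libraries also lost LBD18 (0.066), CYP86B1 (0.0733), COBL9 (0.136), IRT1 (0.272) and RHD6 (0.502). Without a filter on low counts SNRK2.3 (0.0597) and RHD6 (0.0707) were lost. RHD6 was lost as well with the replicate block (0.0558) and the shoot-RNA covariate (0.0595).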
